A study of Rattus norvegicus with 10 samples.

Results

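The endothelial identity genes are a fixed set of 10 genes that mark the cells lining blood vessels and the cavernous spaces of the penis: Pecam1, Vwf, Cdh5, Kdr, Flt1, Tek, Tie1, Eng, Cldn5 and Plvap. They were read through every probe set, a group of short probes for one transcript, whose platform annotation names one of them as its only gene, which gave 10 probe sets of 15923 in the table, for 8 of the 10 genes. Cdh5 and Tek have no such probe set and were not analysed here. Flt1 has 3 probe sets and each of the other 7 genes has 1.

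The study measured total RNA of cavernosal tissue, the erectile tissue of the penis, with Affymetrix RAE230A arrays, each sample on an array of its own. The 5 control samples came from F344 rats, an inbred strain, and the labels give them no treatment. The 5 diabetic samples came from F344 rats made diabetic with streptozotocin, which destroys the insulin-producing beta cells of the pancreas, and are labelled as 10 week. Age and insulin treatment are not given in the sources used here, nor whether a sample is 1 animal, so a p-value here covers only how much these samples vary, which may be technical. The RNA is that of whole tissue, in which fewer endothelial cells and less RNA per endothelial cell cannot be told apart.

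Endothelial cells form the inner lining of vessels and of the erectile sinusoids, release nitric oxide, and hold a barrier between blood and tissue. Their identity genes encode junction proteins that seal the lining (Pecam1, Cdh5, Cldn5), receptors for vascular endothelial growth factor (Kdr, Flt1), the angiopoietin receptor Tek and its partner Tie1, and Eng, a co-receptor for ligands of the TGF-beta family. Vwf is the clotting glycoprotein stored in endothelial granules and also in platelets. Plvap builds the diaphragms of fenestrae and caveolae, which are features of permeable endothelium, whereas Cldn5 is a tight junction protein of tight endothelium.

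Of the 8 genes measured, 6 lay above the filter on low values (an intensity of 85.9) on all 10 arrays, Plvap on 8 and the tested Flt1 probe set on 5. Summed over the 8 genes, with 1 probe set each, the intensities came to between 1014 and 1791 intensity units in control and between 1457 and 1902 in diabetic arrays. The arrays were scanned on 4 days and washed on 2 fluidics stations, and station 1 held 4 of the 5 control arrays and station 2 held 4 of the 5 diabetic arrays. Control arrays 1 and 2 carried little epithelial signal, at a mean log2 value of 5.93 and 5.85 over the 15 epithelial markers. Controls 3 and 5 stood at 9.06 and 9.56 and diabetic arrays at 8.60 to 9.62, and control 4 lay in between, at 7.58.

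Cldn5 and Plvap stood furthest apart among the genes measured, in opposite directions, by 0.83 and -0.86 on the log2 scale, while the other 6 genes differed by -0.13 to 0.30. Cldn5 read 317.8, 260.5, 203.0, 314.2 and 160.4 in controls 1 to 5 and 532.2, 398.8, 365.9, 505.5 and 445.4 in diabetic arrays 1 to 5 (intensity). Every diabetic array lay above every control array, although the control arrays themselves spanned a range of 1.98-fold. Plvap read 256.9, 222.6, 215.6, 267.5 and 127.6 in controls 1 to 5 and 60.1, 178.0, 85.7, 141.0 and 114.0 in diabetic arrays 1 to 5. In Plvap 4 of 5 control arrays lay above the highest diabetic array, and control 5 fell among the diabetic values.

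The promoter windows of these 2 genes, and that of Kdr, which differed least between the groups, are shown as those of the lowest, the highest and the smallest difference of the set. They are taken from RefSeq on build GRCr8 and run from 250 bases before to 50 bases after the annotated start of the gene, 5′ to 3′ on the strand of the gene. The table held windows for 6 of the 10 genes. Capitals mark GC boxes (GGGCGG, or CCGCCC on the other strand), the sites of Sp1 and KLF factors, and ETS cores (CCGGAA, or TTCCGG on the other strand), the letters bound by many endothelial transcription factors of the ETS family. Cldn5 lies at chr11:95718549-95718848 on the minus strand, Plvap at chr16:18231230-18231529 on the minus strand and Kdr at chr14:32571813-32572112 on the plus strand.
Cldn5: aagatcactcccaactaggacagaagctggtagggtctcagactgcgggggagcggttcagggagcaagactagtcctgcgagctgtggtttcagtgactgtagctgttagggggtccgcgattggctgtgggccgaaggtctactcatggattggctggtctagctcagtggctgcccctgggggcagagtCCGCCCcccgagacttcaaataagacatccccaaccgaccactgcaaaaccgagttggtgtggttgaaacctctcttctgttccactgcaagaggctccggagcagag
Plvap: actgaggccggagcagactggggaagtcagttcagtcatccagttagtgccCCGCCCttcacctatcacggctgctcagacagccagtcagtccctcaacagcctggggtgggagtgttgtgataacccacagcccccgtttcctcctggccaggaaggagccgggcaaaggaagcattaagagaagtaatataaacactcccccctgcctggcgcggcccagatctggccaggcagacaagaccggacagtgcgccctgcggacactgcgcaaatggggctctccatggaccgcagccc
Kdr: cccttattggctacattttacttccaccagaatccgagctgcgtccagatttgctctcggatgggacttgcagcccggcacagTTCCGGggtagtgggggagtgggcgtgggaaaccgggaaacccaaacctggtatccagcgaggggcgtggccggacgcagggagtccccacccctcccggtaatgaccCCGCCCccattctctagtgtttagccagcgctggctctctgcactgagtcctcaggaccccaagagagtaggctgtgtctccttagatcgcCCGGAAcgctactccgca
Of 6 motifs searched on both strands, the GC box occurred in 5 of the 6 windows, all but that of Eng, against 33.1% of all 33469 windows. The ETS core occurred in the Kdr window alone, with 2 matches, against 15.0% of all windows. TATAAA occurred in the windows of Flt1 and Plvap, against 14.2% of all windows. AGATAA, the GATA motif, and TGTTTAC, a forkhead motif, occurred in none of the 6, against 11.6% and 3.78%. GGAA, the short ETS core that CCGGAA contains, occurred in all 6 and in 95.8% of all windows. Apart from GGAA, no matches of different motifs overlapped, and the member windows held 57.7% to 72.7% G and C, against a median of 51.7%.

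**Figure D1:**
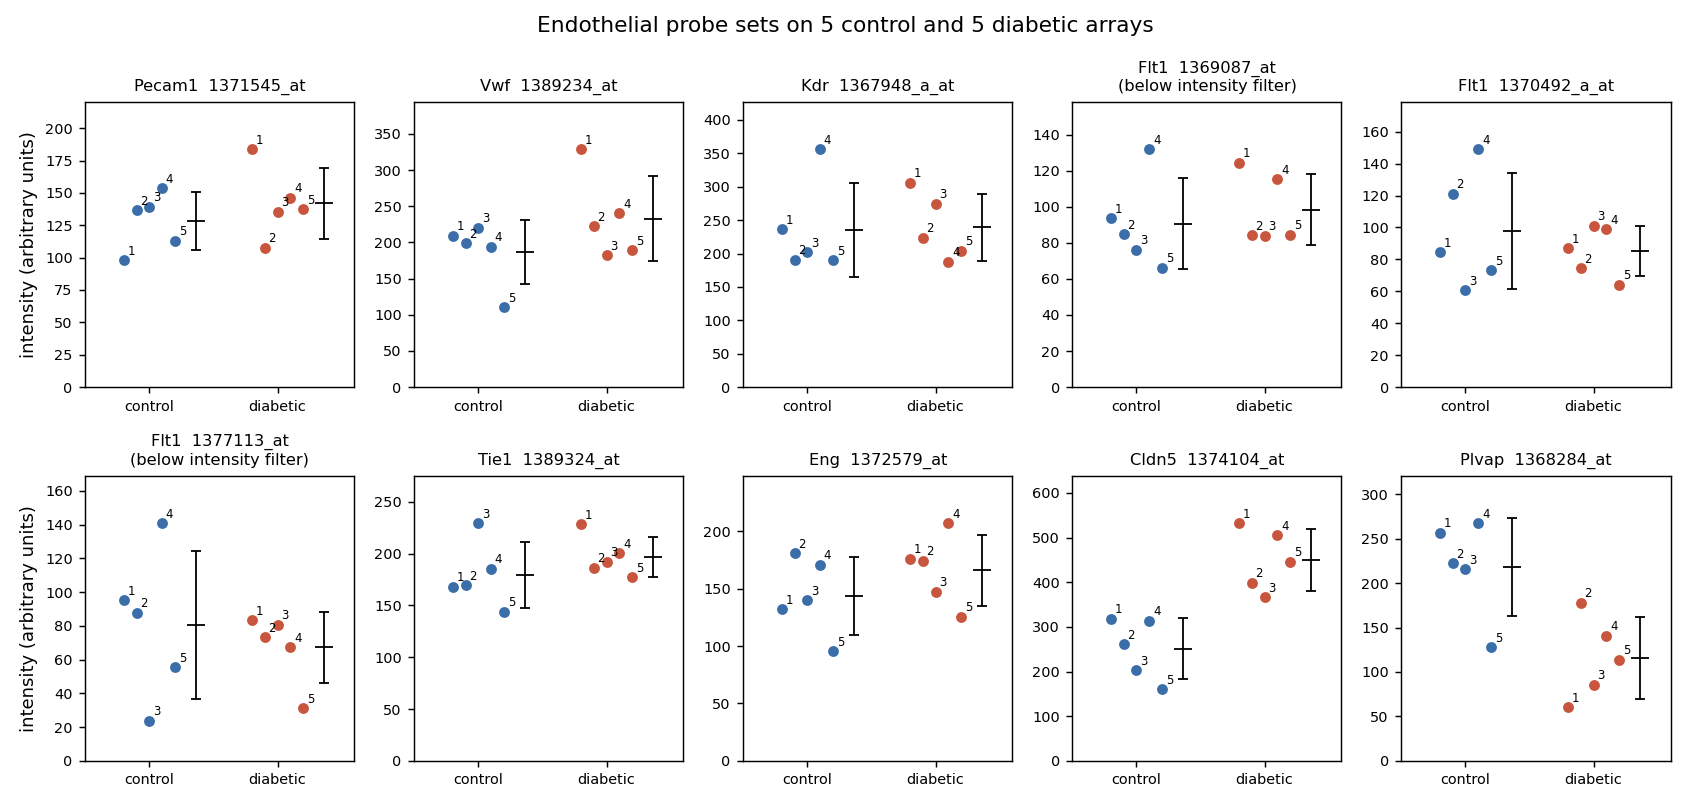
Intensity (arbitrary units, linear axis from 0) of the 10 endothelial probe sets on each array, with control arrays in blue and diabetic arrays in red, numbered by replicate; the bar beside each group is the mean ± SD of 5 arrays. Cldn5 is the one probe set whose groups do not overlap, from 160.4 to 317.8 in control and from 365.9 to 532.2 in diabetic arrays.

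The groups were compared with limma on log2(intensity + 16), as a two-sided test adjusted by Benjamini-Hochberg across the 9683 probe sets that passed the filter, and a call needed an adjusted p under 0.05. A probe set passed the filter if at least 5 of the 10 arrays exceeded an intensity of 85.9, and 8 of the 10 member probe sets did, 1 for each gene. The comparison called 41 probe sets, or 0.423% of those tested, and 0 of the 8 members, of which 2, Cldn5 and Plvap, had an unadjusted p under 0.05, against 17.5% of all probe sets tested. At an adjusted p under 0.1, 1 of the 8 passed, Cldn5, against 2.38% of all. Cldn5 no longer passed 0.1 with scan day as a block (adjusted p = 0.258), station as a block (0.275), median centring (0.104) or no filter (0.110). Diabetic means were higher for 6 and lower for 2 of the 8 genes, while 57.8% of all probe sets tested were higher. The median log2 difference was 0.13 over the 8 genes and 0.047 over all probe sets.

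Cldn5, read by probe set 1374104_at, had a mean of 251.2 ± 69.0 in control and 449.6 ± 69.9 in diabetic arrays (SD, n = 5 per group). Its log2 difference was 0.83 ± 0.19 (SE), a ratio of 1.78, with a 95% interval of 0.42 to 1.24, and limma's adjusted p was 0.0771. The exact permutation test of this difference over all assignments of the arrays gave p = 0.00794, two-sided, the smallest that 5 against 5 arrays allow and not adjusted for the 10 member probe sets examined. Groups without overlap were seen in 1 of 8 member probe sets and in 3.89% of all probe sets tested, 2.36% with diabetic arrays higher and 1.53% with diabetic arrays lower. A difference of this size or larger was found in 348 of the 9683. Within scan days 1, 2 and 3 Cldn5 stood 0.77, 0.73 and 0.995 higher in diabetic arrays on the log2 scale, and within stations 1 and 2 it stood 0.76 and 0.52 higher. Most of these rest on single arrays. Diabetic 2 was the lone diabetic array of day 1 and of station 1. Day 2 held only diabetic 1 and control 4, and control 4 was the lone control array of station 2.

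Plvap, read by probe set 1368284_at, had a mean of 218.0 ± 55.1 in control and 115.8 ± 46.1 in diabetic arrays (SD, n = 5 per group). Its log2 difference was -0.86 ± 0.26 (SE), a ratio of 0.549, with a 95% interval of -1.44 to -0.29, a limma adjusted p of 0.154 and an exact permutation p of 0.0238. The size of the difference varied with the day. It was -0.029 within scan day 1, where diabetic 2 met controls 1 and 5, -1.90 within day 2, where diabetic 1 met control 4, and -0.72 within day 3. Within station 1 it was -0.15 and within station 2 it was -1.34. Each of these rests on a lone array, diabetic 2, the highest diabetic array, and control 4, the highest of all 10. With scan day as a block Plvap stood at -0.78 (limma adjusted p = 0.410) and with station as a block at -0.75 (adjusted p = 0.328).

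Leaving out 1 array, control 5, changed the call of both genes. Without control 5, which was the lowest array for Cldn5 and the lowest control array for Plvap, limma called both, Cldn5 at 0.69 ± 0.16 (adjusted p = 0.0267) and Plvap at -1.03 ± 0.24 (adjusted p = 0.0285). Without any other single array neither was called, with adjusted p of 0.0980 to 0.186 for Cldn5 and 0.154 to 0.328 for Plvap. Leaving out control 5 also took the calls over all probe sets from 41 to 1068.

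**Figure D2:**
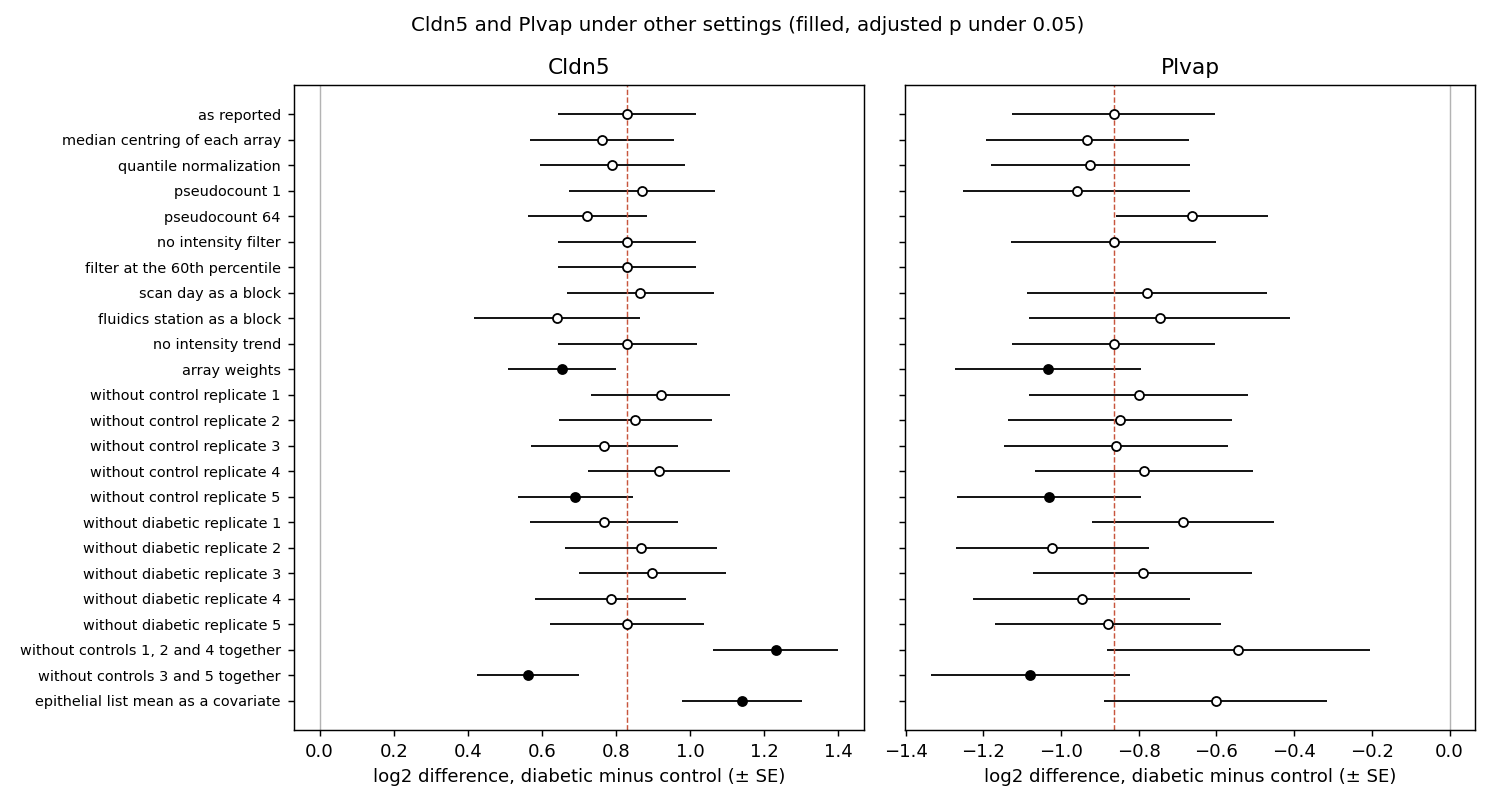
Log2 difference between diabetic and control arrays (± SE) of Cldn5, left, and Plvap, right, as reported and under each other setting named on the vertical axis; filled points had an adjusted p under 0.05, and the dashed line is the reported value. Cldn5 lies between 0.56 and 1.23 and Plvap between -1.08 and -0.54, each on its own side of 0 in every setting shown.

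Epithelial signal was on average higher in diabetic arrays. All 15 epithelial markers had higher diabetic means, with a median log2 difference of 1.82 and 0 called, and their summed intensity ranged from 773.7 to 15568 in control and from 7295 to 15467 in diabetic arrays. The brightest of them, Epcam, had a mean of 1235 ± 1424 in control and 2548 ± 703 in diabetic arrays (SD, n = 5), and none of the 15 was at 0. Among control arrays Cldn5 was lowest, at 160.4 and 203.0, in controls 5 and 3, those with the most epithelial signal. Among diabetic arrays, with epithelial means of 8.60 to 9.62, Cldn5 read 365.9 or more. Without controls 1, 2 and 4 Cldn5 stood at 1.23 ± 0.17 (limma adjusted p = 0.0269), and with the mean of the epithelial markers as covariate it stood at 1.14 ± 0.16 (adjusted p = 0.0194). Without controls 3 and 5 it stood at 0.56 ± 0.14 (adjusted p = 0.00962). Plvap moved in the same direction on the log2 scale, so its difference shrank where that of Cldn5 grew. It stood at -0.54 ± 0.34 without controls 1, 2 and 4 (limma adjusted p = 0.472) and at -0.60 ± 0.29 with the covariate (adjusted p = 0.410). Without controls 3 and 5 it stood at -1.08 ± 0.26 (adjusted p = 0.00875). Without controls 1, 2 and 4, which left only controls 3 and 5, other members rose as well. Vwf, Eng, Kdr and Flt1 stood at 0.50, 0.45, 0.24 and 0.28 there, while Pecam1 and Tie1 changed little, to 0.14 and 0.099. Fibroblast signal was on average lower in diabetic arrays. All 10 fibroblast markers had lower diabetic means, with a median of -0.29 and 0 called, and their summed intensity ranged from 23161 to 34759 in control and from 12441 to 19195 in diabetic arrays. The collagen genes Col1a1, Col1a2 and Col3a1 had groups without overlap, at -2.05 to -1.35, while Dcn and Lum stood at -0.0087 and -0.062. Of 5 tested adipocyte markers 4 stood higher and 2 were called, Lpl, lipoprotein lipase, at 1.41 ± 0.15 (limma adjusted p = 0.0108) and Cidea, a lipid droplet protein, at 1.15 ± 0.19 (adjusted p = 0.0413), both without overlap. The adipocyte markers Plin1, Lep and Pparg did not pass the filter. Summed over the 8 adipocyte markers with a probe set, intensity ranged from 827.5 to 1965 in control and from 1773 to 2767 in diabetic arrays. Of 19 skeletal muscle markers 0 were called, 2 stood higher and 17 lower, with a median of -0.18 and sums of 112355 to 136911 in control and 92677 to 124141 in diabetic arrays, and Pvalb, the calcium buffer parvalbumin of fast fibres, stood at -1.79 without overlap (adjusted p = 0.160). Of 11 smooth muscle markers 0 were called, 7 stood higher and 4 lower, with a median of 0.21 and sums of 13846 to 17601 and 15005 to 19131. Tagln, Myh11 and Actg2 stood at 0.47, 0.52 and 0.53 (limma adjusted p = 0.248, 0.216 and 0.247). The 4 lower were Synpo2 at -0.48 (adjusted p = 0.280), Des at -0.19, Smtn at -0.16 and Cald1 at -0.13. Synpo2 and Cald1 each have 2 tested probe sets that differ in sign. Of 9 macrophage and leukocyte markers 7 stood higher and 2 lower, and of 5 blood and platelet markers 3 and 2, with 0 called in either list. No marker of these lists was at 0. Beside these counts, 0.423% of all probe sets tested were called, 57.8% stood higher and 3.89% had groups without overlap. Epithelial signal was on average higher in diabetic arrays but overlapped between the groups, and among controls only 3 and 5 reached the diabetic range. Its part in the Cldn5 and Plvap differences therefore cannot be told apart from that of diabetes in these arrays. The part of the fibroblast, adipocyte and muscle markers was not tested.

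**Figure D3:**
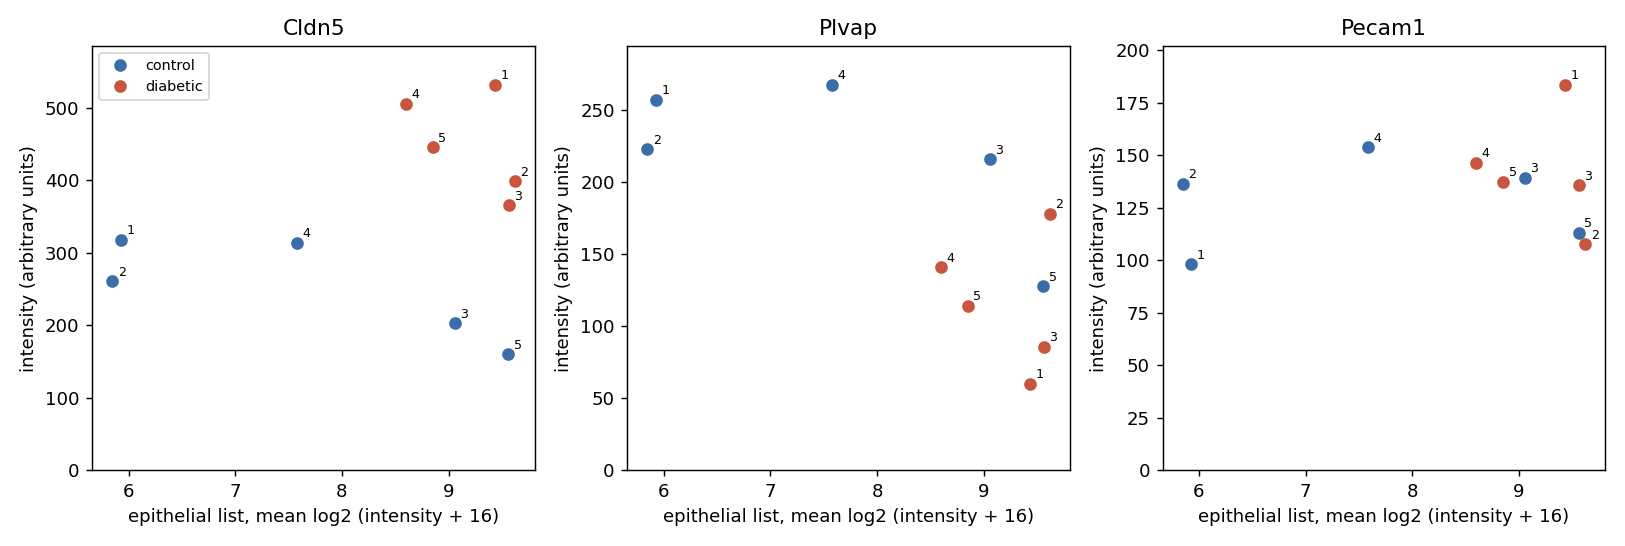
Intensity of Cldn5, Plvap and Pecam1 (vertical axes, from 0) against the mean log2(intensity + 16) of 15 epithelial markers on the same array, with control arrays in blue and diabetic arrays in red, numbered by replicate. Among the 7 arrays with epithelial means of 8.60 or more, the 5 diabetic arrays read 365.9 to 532.2 for Cldn5 and controls 3 and 5 read 203.0 and 160.4, while Pecam1 of the groups overlapped.

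The ratio of Cldn5 to Plvap within an array, chosen after their values were seen and given with no test, did not overlap between the groups. It was 1.24, 1.17, 0.942, 1.17 and 1.26 in controls 1 to 5 and 8.86, 2.24, 4.27, 3.59 and 3.91 in diabetic arrays 1 to 5. The lowest diabetic array lay above all control arrays. This ratio compares arrays with each other, since the brightness of different probe sets has no common scale. Measured against the mean of the other 7 genes on the same array, Cldn5 stood 0.86 higher and Plvap 1.08 lower in diabetic arrays on the log2 scale, a description with no test, and the other 6 genes differed by -0.24 to 0.25. The other 7 genes include Plvap for Cldn5 and Cldn5 for Plvap, which widens both values. The mean of the 6 genes without these 2 differed by 0.11, beside 0.83 for Cldn5 and -0.86 for Plvap on their own.

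Among the general lineage markers, Pecam1 and Vwf did not pass the test. Pecam1, the adhesion molecule CD31 at endothelial contacts (probe set 1371545_at), ranged from 98.0 to 153.7 with a median of 136.4 in control and from 107.5 to 183.6 with a median of 137.4 in diabetic arrays. Its log2 difference was 0.13, with a 95% interval of -0.19 to 0.46 (limma adjusted p = 0.649), and with station as a block it turned to -0.090. Vwf (probe set 1389234_at) read 209.4, 199.0, 220.4, 194.2 and 110.2 in controls 1 to 5 and 328.6, 222.1, 182.4, 240.6 and 189.3 in diabetic arrays 1 to 5. Its groups overlapped, with 3 of 5 diabetic arrays above the highest control, and control 5 lay far below the other 4 controls. The log2 difference of Vwf was 0.30, with an interval of -0.14 to 0.73 (adjusted p = 0.428), and it was 0.14 without control 5 and 0.17 without diabetic 1. The platelet genes Pf4 and Itga2b, named because Vwf is also a platelet product, stood at -0.23 ± 0.26 (adjusted p = 0.645) and 0.27 ± 0.22 (adjusted p = 0.521).

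The growth factor receptors overlapped between the groups as well. Kdr, the main signalling receptor for vascular endothelial growth factor (probe set 1367948_a_at), read 236.4, 191.0, 202.2, 355.9 and 190.3 in controls 1 to 5 and 306.2, 223.4, 274.3, 187.6 and 204.3 in diabetic arrays 1 to 5. Control 4 and diabetic 1, the 2 arrays of scan day 2, were the highest of the 10. Its log2 difference was 0.040, with an interval of -0.37 to 0.45 (limma adjusted p = 0.921), and it lay at -0.028 with median centring and -0.026 with quantile normalization, so it has no settled direction. Flt1, a receptor that binds the same ligand and also exists in a soluble form that traps it, was tested through probe set 1370492_a_at, which ranged from 60.6 to 148.9 in control and from 64.1 to 101.1 in diabetic arrays. This probe set stood at -0.13, with an interval of -0.59 to 0.34 (adjusted p = 0.772), and at 0.023 without control 4. The other Flt1 probe sets did not pass the filter, and without a filter 1369087_at stood at 0.12 ± 0.18 (adjusted p = 0.787) and 1377113_at at -0.12 ± 0.35 (adjusted p = 0.901). Control 4 was the highest array for all 3 Flt1 probe sets. The files do not say which Flt1 transcript each one reads.

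Tie1, the orphan receptor that partners Tek (probe set 1389324_at), ranged from 143.8 to 229.3 in control and from 177.1 to 228.1 in diabetic arrays. Its log2 difference was 0.13, with an interval of -0.13 to 0.40 (limma adjusted p = 0.554). Eng (probe set 1372579_at) ranged from 95.3 to 180.6 in control and from 125.6 to 207.0 in diabetic arrays, and stood at 0.20, with an interval of -0.18 to 0.58 (adjusted p = 0.541). Control 5 was the lowest of the 10 arrays for both. The intervals of Pecam1, Tie1 and Eng reach up to increases of 0.40 to 0.58 on the log2 scale, and that of Vwf to 0.73. A moderate increase is therefore not excluded with 5 arrays per group. For Kdr, at -0.37 to 0.45, and Flt1, at -0.59 to 0.34, a moderate change in either direction is not excluded.

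**Figure D4:**
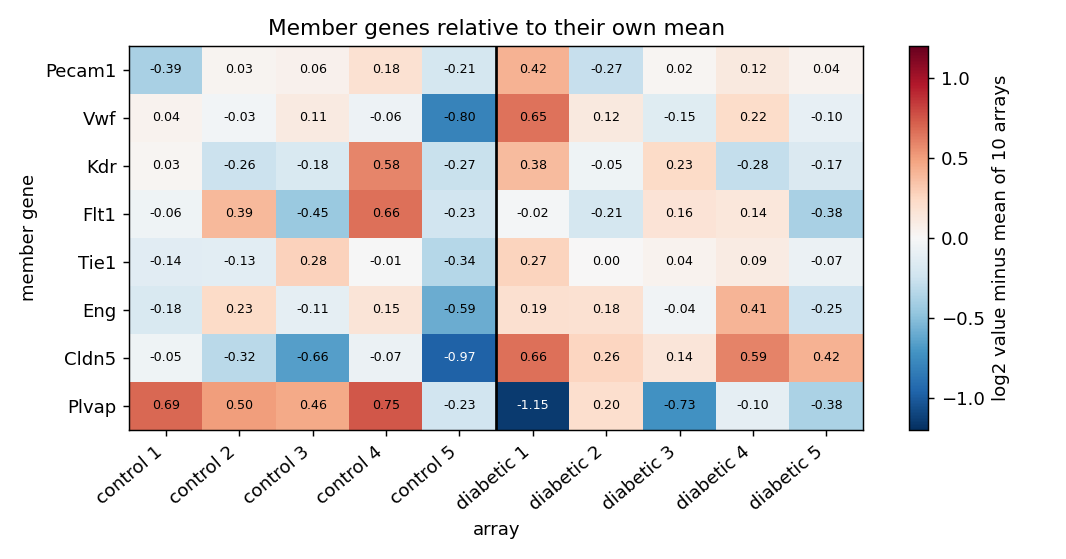
Log2 value of each of the 8 endothelial genes on each array minus that gene's mean over the 10 arrays, with red above and blue below the mean and a line between control and diabetic arrays. Control 5 lies below the mean in all 8 genes, Cldn5 lies below it on all 5 control and above it on all 5 diabetic arrays, and Plvap shows the opposite except on control 5 and diabetic 2.

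Arrays differed in endothelial signal as a whole. On control 5 all 8 genes lay below their own mean over the 10 arrays, by 0.46 on average on the log2 scale, and 4 of them had their lowest value there. Control 4 and diabetic 1 lay highest, by 0.27 and 0.18, and each held the highest value of 3 genes. Without Cldn5 and Plvap the mean of the other 6 genes was -0.41 on control 5, 0.25 on control 4 and 0.31 on diabetic 1. Averaged by group, these 6 genes stood at -0.057 ± 0.24 in control and 0.057 ± 0.18 in diabetic arrays (SD, n = 5), a difference within the spread of either group. The low level on control 5 was not particular to endothelial genes. The blood and platelet, macrophage and leukocyte, and adipocyte lists also had their lowest mean of the 10 arrays there. For the macrophage and leukocyte list control 4 was nearly as low.

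The genes moved together only in part across the 10 arrays. Of the 21 pairs without Plvap, 20 had a positive Pearson correlation, with a median r of 0.46, and the closest pair was Vwf and Tie1 (r = 0.82, rho = 0.62). Of the 7 pairs with Plvap, 2 were positive. Around the group means, which removes the difference between the groups, 20 of the 21 pairs without Plvap and 5 of the 7 with it were positive, and Cldn5 and Plvap went from an r of -0.45 to 0.37. These correlations describe arrays that share scaling, scan day and tissue makeup, and carry no p. Among all tested probe sets with 1 gene, the profile most like that of Cldn5 was that of Myh8, the perinatal skeletal myosin heavy chain (r = 0.95, rho = 0.92), followed by Ech1, an enzyme of fatty acid oxidation (r = 0.95), and Slc6a6, the taurine transporter (r = 0.95). Those most like Plvap were Rcn3 (r = 0.92), Ptgis, the prostacyclin synthase (r = 0.92), and Dpep1, a dipeptidase (r = 0.92). Those most like Vwf were Casq2, a calcium-binding protein of muscle (r = 0.94), Inpp1 (r = 0.93) and Gucy1a1, a subunit of the nitric oxide receptor (r = 0.92). Those most like Eng were Arsb, a lysosomal sulfatase (r = 0.98), Rrm1, a ribonucleotide reductase subunit (r = 0.91), and Gja4, connexin 37 (r = 0.90). For Pecam1 they were Lrpprc, Polrmt and Prune1 (r = 0.92, 0.90 and 0.89), for Kdr Serinc1, Ash1l and Terf2 (r = 0.91, 0.88 and 0.88), for Flt1 Pvr, Socs3 and Sphk1 (r = 0.96, 0.95 and 0.95) and for Tie1 Lmcd1, Spats2 and Cdc23 (r = 0.95, 0.91 and 0.90). They were the highest among the 8213 probe sets with 1 gene. Taken over all 10 arrays, these likenesses also reflect a shared difference between the groups. Myh8, Ech1 and Slc6a6 stood at 2.75, 0.92 and 0.58 in diabetic minus control arrays on the log2 scale, and Rcn3, Ptgis and Dpep1 at -0.72, -0.38 and -0.24.

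Beyond the identity genes, the endothelial lists held no called gene. Of 28 tested genes of endothelial surfaces and junctions, 0 were called, against 0.423% of all probe sets tested, and 17 stood higher and 11 lower, near the 57.8% of all that stood higher. The median log2 difference was 0.058. Groups without overlap were seen in 1 of the 28 genes and in 3.89% of all probe sets tested. That gene was Mcam, the adhesion molecule CD146 of endothelium and mural cells, from 402.0 to 653.3 in control and from 653.4 to 892.6 in diabetic arrays. Its log2 difference was 0.56 ± 0.15 (limma adjusted p = 0.131). Mmrn2, a matrix protein of endothelium, stood at 0.45 ± 0.15 (adjusted p = 0.181), Cd36, a fatty acid transporter, at 0.95 ± 0.43 (adjusted p = 0.285), and Tfpi, the inhibitor of tissue factor, at -0.40 ± 0.13 (adjusted p = 0.179), with its 2 probe sets differing in sign. Nos3, the endothelial nitric oxide synthase, did not pass the filter.

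Of 18 tested transcription factor and Notch genes, 0 were called, 14 stood higher and 4 lower, and the median was 0.22, beside 0.423% called, 57.8% higher and a median of 0.047 over all probe sets tested. Of the 18, 1 had groups without overlap, against 3.89% of all probe sets tested. This was Notch1, a receptor of endothelial and epithelial cells, which ranged from 181.3 to 272.3 in control and from 287.4 to 326.7 in diabetic arrays, at 0.45 ± 0.11 (limma adjusted p = 0.0954). Its highest control values, 272.3 and 241.3, were in controls 5 and 4. Nr2f2, the venous factor COUP-TFII, stood at 0.67 ± 0.22 (adjusted p = 0.181), Fli1, an ETS factor, at -0.50 ± 0.22 (adjusted p = 0.271), and Mef2c, a factor of muscle and endothelium, at -0.82 ± 0.31 (adjusted p = 0.225).

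Of 19 tested ligands, co-receptors and signalling partners of the VEGF, angiopoietin and endoglin pathways, 0 were called, 10 stood higher and 9 lower, and the median was 0.035. Over all probe sets tested, 0.423% were called, 57.8% stood higher and the median was 0.047. Vegfa, the main ligand of Kdr and Flt1, had a mean of 1033 ± 300 in control and 792.1 ± 84.7 in diabetic arrays (SD, n = 5), at -0.33 ± 0.21 (limma adjusted p = 0.412). Ptpn11, the phosphatase SHP2 that acts below these receptors, stood at -0.49 ± 0.16 (adjusted p = 0.179), Bmpr2, a partner receptor of Eng, at -0.22 ± 0.13 (adjusted p = 0.391), and Id1, a target of that pathway, at 0.31 ± 0.23 (adjusted p = 0.476).

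**Figure D5:**
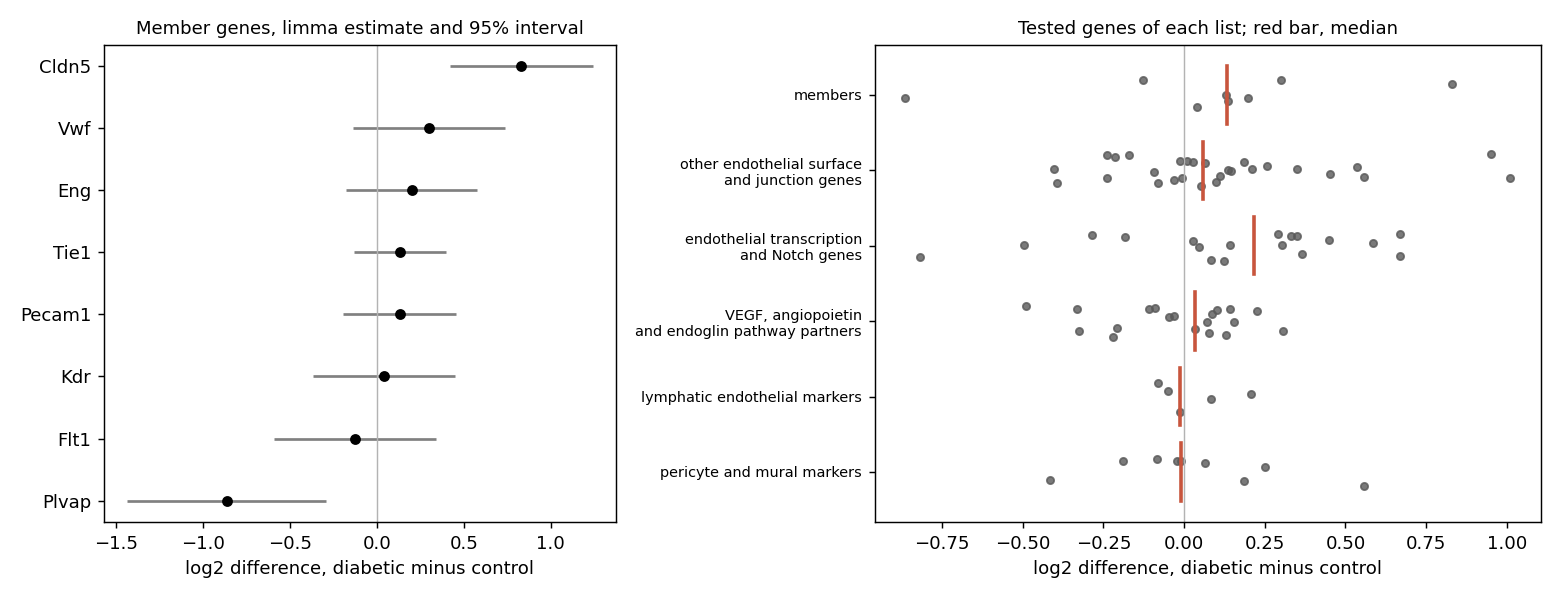
Left, log2 difference between diabetic and control arrays of the 8 tested endothelial genes with the 95% interval of limma; right, the same difference for each tested gene of the members and 5 further lists, 1 point per gene, with the median as a red bar. The intervals of Cldn5 and Plvap lie on opposite sides of 0 and those of the other 6 genes include it, and the list medians lie between -0.013 and 0.22.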

How the data were processed

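The authors deposited 1 linear intensity for each probe set on each of the 10 arrays, 5 control and 5 diabetic. These values share a trimmed mean of 250.1 across arrays (lowest and highest 2% left out), so some common scaling was applied before deposit. Per the file headers the arrays came from 1 chip lot. The software, background correction and detection calls behind them are not given in the sources used here; no statement on detection is made. The table held 15923 rows, of which 57 were control probe sets and were not used. Of the other 15866, 12783 carried 1 gene in the platform annotation, 312 several and 2771 none. Current symbols came from the Entrez identifier for 12748.

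Intensities were floored at 1 and transformed as log2(intensity + 16), which shrinks the differences of dim probe sets. A probe set was tested where 5 or more arrays lay above the 40th percentile of all values. Tests used limma 3.58.1 under R 4.3.3 with an eBayes intensity trend, checked on simulated data with known changes. Lists were read through the brightest tested probe set of each gene and are described by counts and medians. Named are all members, up to 4 genes with the smallest p in each endothelial list, among the 3 brightest and the not overlapping genes of each marker list those that bear on a member, and the 3 profiles most like each member. Nos3, Itga2b, Myh11, Actg2, Synpo2, Smtn, Cald1, Lum, Prox1, Rgs5, Plin1, Lep and Pparg were named outside this rule after their values were seen. The members, lists and alternatives were chosen with earlier results of these data known. Alternatives covered scaling, pseudocounts of 1 and 64, the filter, scan day and station as blocks, the trend, array weights, left-out arrays and an epithelial covariate. Motifs were matched as exact letters. Figures were drawn with matplotlib 3.10.9.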

Additional observations from a re-analysis of the deposited data

Results flagged for a closer look

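In 20 groups of 5 arrays, 2 per member probe set, Dixon's ratio of the gap beside the lowest or highest array to the whole range of the group was compared with its critical value of 0.71. Chance gives about 1 in 20 such groups. Vwf in control 5 was the lowest of the control arrays with a ratio of 0.813, at 110.2 against 194.2 to 220.4 in the others. Flt1 by probe set 1377113_at in diabetic 5 was the lowest of the diabetic arrays with a ratio of 0.764, at 31.3 against 67.5 to 83.5, and this probe set did not pass the filter on low values.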

How the results depend on the processing

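No paired analysis was possible because the replicate numbers follow the order of deposit and the sample titles of the groups share a lone number. Over all probe sets, limma called 41 as reported, 22 with a pseudocount of 1, 26 without a filter, 2813 with array weights, 21 without controls 1, 2 and 4, 3436 without controls 3 and 5, 21 with the epithelial covariate, and 0 with scan day or station as a block, where 1119 and 1483 had an unadjusted p under 0.05. Leaving out single arrays gave 0 to 1068 calls, and each of the 10 arrays moved the count by over 1.5 times. Of the endothelial probe sets 0 were called as reported, 2 (Cldn5 and Plvap) with array weights and without controls 3 and 5, and 1 (Cldn5) without controls 1, 2 and 4 and with the covariate. Leaving out single arrays gave 0 to 2 calls. At an adjusted p of 0.1 as threshold 1 gene of the transcription and Notch list, Notch1, was called, against 0 at 0.05. Cldn5 ranged from 0.56 to 1.23 and Plvap from -1.08 to -0.54 over all settings run, the filter at the 60th percentile leaving Plvap, Pecam1, Eng and Flt1 untested.

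Of 188 recomputed member values, 15 turned sign, none of them called. Kdr, at 0.040 as reported, was -0.028 with median centring, -0.026 with quantile normalization, -0.029 with scan day and -0.21 with station as a block, -0.014 with array weights and -0.097 without controls 3 and 5, and -0.050 to 0.19 with single arrays left out. Flt1, at -0.13, was 0.28 without controls 1, 2 and 4, 0.089 with the covariate, and -0.25 to 0.023 with single arrays left out. Pecam1, at 0.13, was -0.090 with station as a block. The cause was not tested. Median centring moved the median of all probe sets by -0.067.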

Other observations

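Lymphatic endothelial and mural genes were read beside the blood endothelial genes. Of 5 tested lymphatic markers 0 were called, with 2 higher and 3 lower and a median log2 difference of -0.013. Lyve1, the hyaluronan receptor of lymphatic vessels, stood at 0.085 ± 0.20 (limma adjusted p = 0.842) and Prox1, the lymphatic fate factor, at 0.21 ± 0.14 (adjusted p = 0.445). Of 9 tested pericyte and mural markers 0 were called, with 4 higher and 5 lower and a median of -0.0091. Over all probe sets tested, 0.423% were called, 57.8% stood higher and the median was 0.047. Rgs5, a regulator of G protein signalling in pericytes, stood at -0.0091 ± 0.21 (adjusted p = 0.984). Mcam, which this list shares with the endothelial surface genes, was the 1 of the 9 whose groups did not overlap, against 3.89% of all probe sets tested. On control 5 the lymphatic and mural lists, like the endothelial genes, had their lowest mean of the 10 arrays, at 7.06 and 7.97 on the log2 scale against 7.48 to 8.02 and 8.24 to 8.76 elsewhere. This was not particular to vessels. The blood and platelet, macrophage and leukocyte, and adipocyte lists also had their lowest mean there, at 8.13, 8.25 and 7.16. For the macrophage and leukocyte list control 4 was nearly as low, at 8.26. The epithelial list had its highest control mean there, at 9.56.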
